A study of Mus musculus with 157 samples.

Results

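Thymic lymphomas that carried MYCChr6 and no AAA form of Cdc20 were compared with non-tumoral thymus in mouse bulk RNA-seq. The libraries were chosen by their labels, 4 tumours of genotype LCK-Cdc20(+/D) with MYCChr6 and 6 normal thymus libraries of genotype RERT2-Cdc20(+/D) without MYCChr6, so 10 of the 157 libraries of the series. Both groups carried the +/D genotype of Cdc20, and neither carried AAA. The tumours differed from the thymus in 3 labelled ways at once, the tumour state, MYCChr6 and the driver of the line (LCK against RERT2), and these cannot be told apart. The labels give the drivers and the MYCChr6 allele by name only, give no age, and do not state which libraries share an animal, so the spread behind each p-value may be technical. Further groups are given where they bear on a result, namely 2 thymus libraries of genotype RERT2-Cdc20(+/D) with MYCChr6, and 14 tumours of genotype LCK-Cdc20(D/AAA) with MYCChr6. Tumour RNA came from unsorted cells of the lymphomas.

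The Cdc20 protein activates the anaphase-promoting complex (APC/C), the ubiquitin ligase whose activity lets sister chromatids separate in mitosis. The transcription factor MYC pairs with MAX, binds the DNA word CACGTG (an E-box), and is known for raising genes of ribosome production, nucleotide synthesis and metabolism. Thymocytes mature from double negative cells, which depend on Notch signals, through CD4+ CD8+ double positive cells, which express the recombinase genes Rag1 and Rag2 while they assemble the T cell receptor alpha chain. A T cell lymphoma that grew from 1 cell carries the receptor rearrangements of that cell.

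Total counts ran from 4635581 to 5483240 per tumour library and from 4564661 to 6749336 per thymus library. A single gene, CT010467.1, took 38.2% ± 1.68 of counts in tumours and 48.7% ± 2.89 in thymus (SD, n = 4 and 6, 2-sided exact permutation p = 0.00476, the smallest that 4 against 6 can give). Levels are CPM, the counts scaled to a TMM-adjusted library total. The values of tumours 1 to 4 are always given in that order. The thymus libraries carried markers of developing T cells, with Rag1 at 624 to 933 CPM in thymus (median 804) and Cd8a at 615 to 795 CPM in thymus (median 680.3). Of the defining markers of thymic epithelium, Foxn1 and Krt5 were at or near 0, with Foxn1 at 0 in all tumours and at 0 to 1.56 CPM in thymus and Krt5 at 0 in all 10 libraries. Another defining marker, Epcam, is not reported here. The whole epithelium list summed to 92.7 to 274 CPM in thymus and 18.7 to 49.96 CPM in tumours, so transcripts of listed genes were not absent. Only 4 of its 18 members had enough counts to be tested, and the sum does not show which cells they came from. The T cell gene Cd3e stood at 592, 592, 502 and 841 CPM in tumours. Tumour 1 had no Xist and had the Y-linked gene Ddx3y, while tumours 2 to 4 and all 6 thymus libraries had Xist and no Ddx3y, so leaving out tumour 1 gives a comparison within 1 sex. Tumour 4 stood apart in several measures, among them Cd8a (1.92 CPM, against 66.5 to 357 CPM in the other tumours), immunoglobulin counts and the chromosome 6 score.

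Of 11530 genes tested, 3722 (32.3%) passed an adjusted p under 0.05 in edgeR's quasi-likelihood test with Benjamini-Hochberg adjustment. Of these, 1886 (16.4% of tested) were higher and 1836 (15.9%) were lower in tumours. In 25.3% of tested genes the 2 groups did not overlap. The median log2 fold change (tumour over thymus) over all tested genes was -0.02. Of the called genes, 1413 were more than 2-fold higher and 1448 more than 2-fold lower, and 134 and 253 were more than 16-fold higher and lower. Leaving out tumour 1 gave 3142 calls and leaving out tumour 4 gave 4054. One fit of all libraries of the table gave 2496 higher and 1355 lower calls.

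**Figure D1:**
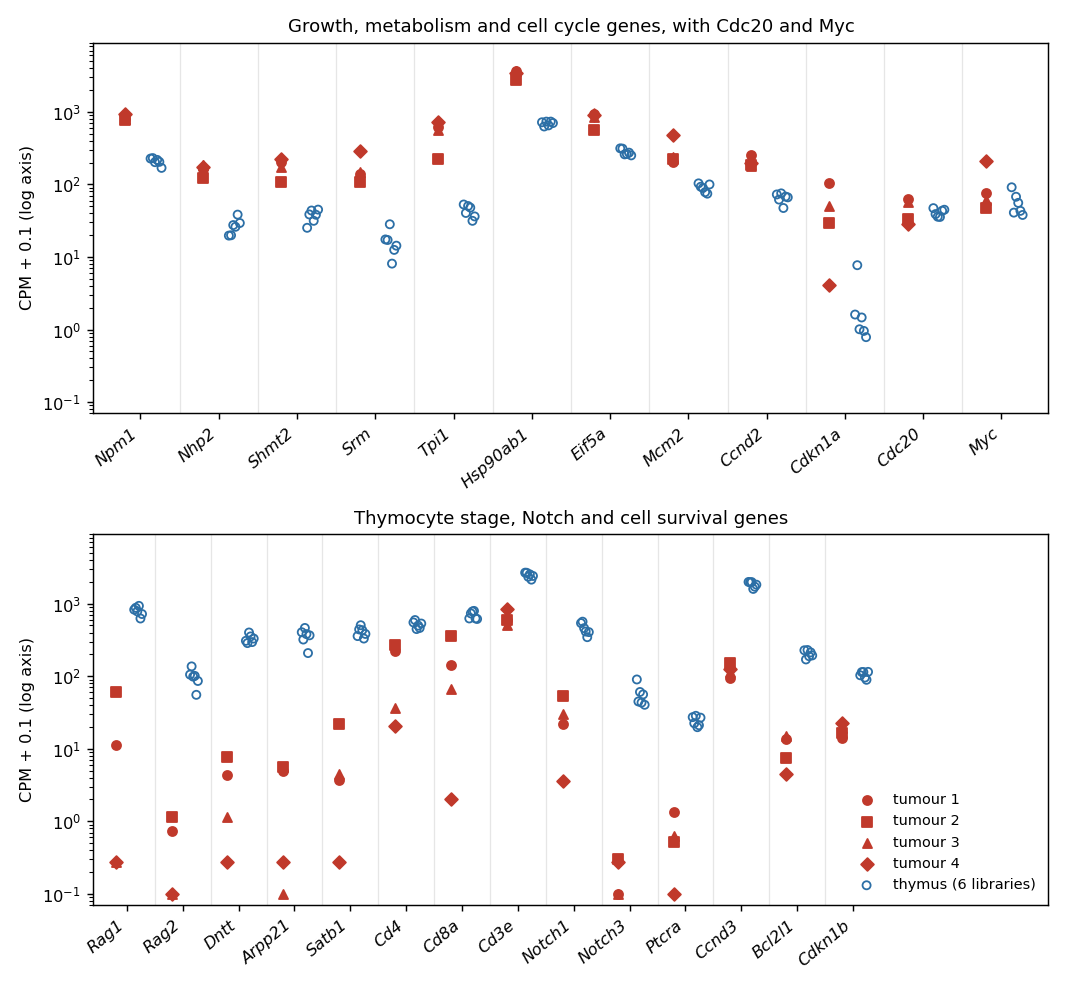
CPM per library of named genes on a log axis (0.1 was added to each value so that 0 can be drawn), with the 4 tumours as filled red symbols left of the 6 thymus libraries as open blue circles. Growth genes such as Srm and Tpi1 lie higher in all 4 tumours, Rag1, Rag2, Notch3 and Ccnd3 lie lower in all 4, and Cdc20 and Myc overlap.

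The largest rises were in genes that thymus hardly expressed. Stra6, which encodes a membrane receptor for retinol-binding protein (chr9:58063788-58153996), had 117, 259.5, 49.2 and 453 CPM in tumours and no count in any thymus library. Against a floor of 3 counts per library it was at least 374-fold higher. Cdh3 (P-cadherin), Sema5a (a semaphorin), Fam84a and Thbs1 (thrombospondin 1) were also at 0 in all 6 thymus libraries and were at least 43.5-fold, 36.3-fold, 26.0-fold and 19.3-fold higher. Crhbp, which encodes the corticotropin-releasing hormone binding protein, had 58.6, 60.5, 78.5 and 2.80 CPM in tumours and a summed count of 1 over the thymus libraries, a ratio of tumours over thymus of 1565 (95% exact counting interval 280.2 to 61865). Spread between tumours was wide in this group, and Apod (apolipoprotein D) and Scrn1 (secernin 1) were led by tumour 1 at 110.03 and 137 CPM, against 2.11 to 3.50 and 2.62 to 41.7 CPM in the other tumours. Shisa6 was led by tumour 2 at 125 CPM.

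Of the 12 largest rises, 3 were in genes with more than 3 counts in each group. Nrp2 (neuropilin 2) had 61.3, 79.7, 37.7 and 34.6 CPM in tumours and 0 to 0.545 CPM in thymus (median 0.169), log2 fold change 7.76 ± 0.53 (SE, adjusted p = 1.40e-06). Asns, the asparagine synthetase gene, had 27.1, 12.2, 45.8 and 63.3 CPM in tumours and 0 to 0.755 CPM in thymus (median 0.0908), log2 fold change 7.64 ± 0.73 (SE, adjusted p = 1.34e-05), and lies on chromosome 6. Spock2, a proteoglycan gene, had 494, 393, 326 and 89.2 CPM in tumours and 0 to 8.28 CPM in thymus (median 0.377), log2 fold change 7.24 ± 1.04 (SE, adjusted p = 4.69e-04). The 12 largest rises and the 12 largest falls were taken only from genes whose groups did not overlap. Lack of overlap in these genes was therefore fixed by the choice.

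Of the 12 largest falls, Notch3, Rag2 and Arpp21 are described with their lists. Chrna9 (chr5:65934921-65977326), a nicotinic acetylcholine receptor subunit, had 0, 0.206, 0 and 0 CPM in tumours and 46.9 to 62.1 CPM in thymus (median 52.8), a ratio of thymus over tumours of 1144 (95% exact counting interval 205 to 45196). P2rx1, an ATP-gated ion channel, had 0, 0, 0 and 0.175 CPM in tumours and 35.3 to 58.98 CPM in thymus (median 40.5), a ratio of thymus over tumours of 933 (95% exact counting interval 167 to 36888). Both were near 0 in all 4 tumours and narrow in thymus. Trim16 had no count in any tumour and 9.94 to 26.2 CPM in thymus (median 14.7), and so was at least 29.3-fold lower. Slc5a9, a sodium-coupled sugar transporter, had 1.26, 0.826, 0 and 0 CPM in tumours and 50.6 to 114 CPM in thymus (median 93.7), log2 fold change -7.43 ± 0.64 (SE, adjusted p = 8.57e-06), and Scn4b, a sodium channel subunit, had 0, 0, 0 and 0.874 CPM in tumours and 27.4 to 59.7 CPM in thymus (median 31.7), log2 fold change -7.10 ± 0.71 (SE, adjusted p = 1.67e-05). Gfra1, Pcbp3 and Xrra1 were likewise at less than 1 CPM in every tumour, against at least 10.3 CPM in every thymus library. H2-T3 had 0.420, 0, 0.176 and 0 CPM in tumours and 1.17 to 244 CPM in thymus (median 107), and it has near-identical neighbours, so its value is uncertain.

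Genes of the double positive stage fell, and Rag2 and Arpp21 were among the 12 deepest falls of the comparison. Of the 20 genes on this list, all were tested, 15 were lower and none was higher, and in 18 every tumour lay below every thymus library. Over all tested genes 15.9% were lower and 13.5% lay apart in that direction. Their median log2 fold change was -2.73, against -0.02 over all tested genes. Rag2 (chr2:101624718-101632529) had 0.630, 1.03, 0 and 0 CPM in tumours and 55.3 to 136 CPM in thymus (median 99.7), log2 fold change -7.88 ± 0.61 (SE, adjusted p = 4.19e-06). Rag1, its neighbour and partner in the recombinase, had 11.1, 60.1, 0.176 and 0.175 CPM in tumours and 624 to 933 CPM in thymus (median 804), log2 fold change -5.48 ± 1.25 (SE, adjusted p = 0.00686). Tumours 3 and 4 held almost no Rag1 and tumour 2 the most among tumours, and no tumour overlapped the thymus in Rag1.

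The template-independent DNA polymerase gene Dntt, which adds bases at receptor junctions, had 4.20, 7.64, 1.05 and 0.175 CPM in tumours and 286 to 400.3 CPM in thymus (median 319), log2 fold change -6.68 ± 0.69 (SE, adjusted p = 5.47e-05). Arpp21, a gene of cortical thymocytes, had 4.83, 5.57, 0 and 0.175 CPM in tumours and 208 to 462 CPM in thymus (median 373), log2 fold change -7.11 ± 0.88 (SE, adjusted p = 1.91e-04). Both were lowest in tumours 3 and 4, and in Dntt every tumour lay far below the thymus range. Rmnd5a, a subunit of the CTLH ubiquitin ligase, had 32.3, 45.01, 20.02 and 23.4 CPM in tumours and 304 to 468 CPM in thymus (median 355), log2 fold change -3.63 ± 0.26 (SE, adjusted p = 1.92e-06). Themis, which tunes receptor signals during selection, had 53.3, 107, 32.5 and 27.1 CPM in tumours and 319 to 499.7 CPM in thymus (median 407), log2 fold change -2.90 ± 0.36 (SE, adjusted p = 8.76e-05). For these 2 genes too the groups were apart. Ccr9, the receptor for the thymic chemokine Ccl25, had 209.98, 181, 91.1 and 16.96 CPM in tumours and 663 to 960.3 CPM in thymus (median 701), log2 fold change -2.56 ± 0.54 (SE, adjusted p = 0.00452).

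The coreceptor genes gave a mixed picture. Cd4 had 219, 269.8, 36.3 and 20.3 CPM in tumours and 446 to 594 CPM in thymus (median 515), log2 fold change -1.92 ± 0.63 (SE, adjusted p = 0.0402), a call that was lost when any 1 thymus library or tumour 1 or 3 was left out (adjusted p up to 0.0812). Cd8a had 141, 357, 66.5 and 1.92 CPM in tumours and 615 to 795 CPM in thymus (median 680.3), log2 fold change -2.30 ± 0.88 (SE, adjusted p = 0.0676), and so did not pass although every tumour lay below every thymus library. Cd8b1 had 498, 783, 309 and 2.80 CPM in tumours and 867 to 1158 CPM in thymus (median 1045), log2 fold change -1.37 ± 0.86 (SE, adjusted p = 0.255), also without overlap. Without tumour 4 both passed (adjusted p = 0.00496 and 0.00529), and 18 of the 20 genes on the list were lower. The level of the list, as the median over its genes of log2(CPM + 2) minus the thymus mean, was -2.71, -2.04, -3.45 and -5.22 in tumours 1 to 4 and -0.17 to 0.20 in thymus. In unsorted samples, fewer cells of a type and less RNA per cell cannot be told apart.

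Genes of T cell receptor signalling were also lower. Of 28 tested, 16 were lower and none was higher, with a median of -1.04, against 15.9% lower over all tested genes. Cd3e, a signalling chain of the receptor complex, had 592, 592, 502 and 841 CPM in tumours and 2144 to 2674 CPM in thymus (median 2471), log2 fold change -1.96 ± 0.17 (SE, adjusted p = 6.12e-06). The zeta chain gene Cd247 had 69.1, 83.6, 70.1 and 384 CPM in tumours and 730.2 to 928 CPM in thymus (median 825), log2 fold change -2.45 ± 0.50 (SE, adjusted p = 0.00337), with tumour 4 nearest to the thymus. Lck, the kinase that starts receptor signalling, had 251, 337, 221 and 609.5 CPM in tumours and 867 to 1136 CPM in thymus (median 929.9), log2 fold change -1.45 ± 0.26 (SE, adjusted p = 8.75e-04), and the adaptor gene Lat had 135, 315, 135 and 253 CPM in tumours and 649 to 772 CPM in thymus (median 696), log2 fold change -1.76 ± 0.24 (SE, adjusted p = 1.51e-04). Every tumour lay below every thymus library in these 4 genes, and also in Thy1, a T cell surface glycoprotein gene, with 189, 557, 179 and 331 CPM in tumours and 1058 to 1703 CPM in thymus (median 1489), log2 fold change -2.20 ± 0.31 (SE, adjusted p = 2.26e-04). Without tumour 4, 20 of 28 members were lower.

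The Notch list, of the receptors and targets that drive early T cell development, held 19 names, of which 8 passed the filter on low counts, and 4 of these were lower and none was higher (median -1.29). Among all tested genes 15.9% were lower. Notch1, the receptor that commits progenitors to the T lineage, had 22.05, 53.1, 30.4 and 3.50 CPM in tumours and 345 to 564 CPM in thymus (median 436), log2 fold change -4.06 ± 0.58 (SE, adjusted p = 4.14e-04). Notch3 (chr17:32120820-32166852) had 0, 0.206, 0 and 0.175 CPM in tumours, a summed count of 2, and 40.3 to 90.1 CPM in thymus (median 50.3). The ratio of thymus over tumours was 573 (95% exact counting interval 158 to 4736). Ptcra, the pre-T cell receptor alpha gene and a Notch target, had 1.26, 0.413, 0.527 and 0 CPM in tumours and 19.7 to 28.3 CPM in thymus (median 24.5), log2 fold change -5.44 ± 0.56 (SE, adjusted p = 1.95e-05). Rbpj, the DNA-binding partner of Notch, had 27.7, 17.3, 13.9 and 19.2 CPM in tumours and 26.8 to 51.3 CPM in thymus (median 43.6), log2 fold change -1.08 ± 0.26 (SE, adjusted p = 0.00634), and the groups overlapped.

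The classical Notch targets Hes1, Nrarp and Dtx1 are in the same list. Hes1 and Nrarp did not pass the filter on low counts and Dtx1 did not pass the test. Of the 12 tested genes of the DN2 and DN3 stages, 2 were lower (Ptcra and Cd81) and none was higher, against 15.9% lower over all tested genes. The Cd81 call was lost without tumour 3 or 4 or thymus library 1, 2, 4, 5 or 6 (adjusted p up to 0.102). Without tumour 4, 4 were higher and 2 were lower. The stage marker Il2ra, a chain of the interleukin 2 receptor, had 54.6, 19.4, 6.15 and 0 CPM in tumours and 22.8 to 97.96 CPM in thymus (median 31.8) and did not pass, log2 fold change -1.19 ± 0.96 (SE, adjusted p = 0.374). Kit, the stem cell factor receptor, had 4.41, 3.51, 0.351 and 0 CPM in tumours and 1.20 to 19.8 CPM in thymus (median 13.3) and did not pass, log2 fold change -2.55 ± 0.95 (SE, adjusted p = 0.0575). The groups overlapped in both.

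Among 18 tested transcription factors of the T lineage, 6 were lower (Satb1, Bcl11b, Tox, Id3, Ets1 and Tcf7) and Runx3 was higher. Among all tested genes 15.9% were lower and 16.4% were higher. Satb1, a chromatin organiser that is most abundant in double positive thymocytes, had 3.57, 21.9, 4.39 and 0.175 CPM in tumours and 330.3 to 504 CPM in thymus (median 406), log2 fold change -5.77 ± 0.85 (SE, adjusted p = 5.70e-04). Bcl11b, which locks in T cell identity, had 13.9, 63.6, 18.3 and 69.96 CPM in tumours and 178 to 206 CPM in thymus (median 197), log2 fold change -2.23 ± 0.42 (SE, adjusted p = 0.00186). Runx3, a factor of the CD8 lineage, had 94.1, 64.2, 57.8 and 20.99 CPM in tumours and 6.71 to 35.97 CPM in thymus (median 18.8), log2 fold change 1.64 ± 0.44 (SE, adjusted p = 0.0127), with tumour 4 inside the thymus range. Of 12 tested oncogenes and tumour suppressors of T cell leukaemia, 4 were lower, namely Notch1, Bcl11b, Ets1 and Fbxw7, and none was higher. Fbxw7, whose product targets Notch and MYC proteins for degradation, had 1.68, 3.10, 4.04 and 2.27 CPM in tumours and 6.22 to 14.6 CPM in thymus (median 10.8), log2 fold change -1.86 ± 0.44 (SE, adjusted p = 0.00583). Tal1, Lmo1, Tlx1, Tlx3, Hoxa9, Hoxa10, Meis1 and Mycn did not pass the filter on low counts. Lmo2, an oncogene of T cell leukaemia, did not pass it either and had 17.2, 3.10, 28.8 and 0 CPM in tumours and no count in any thymus library.

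A few receptor genes dominated each tumour. The most counted beta variable gene took 94.4% of Trbv counts in tumour 1 (Trbv15, 95% exact binomial interval 93.0% to 95.5%), 48.8% in tumour 2 (Trbv13-3, 45.5% to 52.1%), 53.5% in tumour 3 (Trbv4, 50.4% to 56.7%) and 63.4% in tumour 4 (Trbv16, 61.7% to 65.0%). Thymus had 18.2% to 28.6%, with Trbv13-2 on top in all 6 libraries. The mean was 65.0% ± 20.5 in tumours and 24.3% ± 3.59 in thymus (SD, n = 4 and 6, 2-sided exact permutation p = 0.00476). Reads are not independent molecules, so the intervals cover counting error only.

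Tumours 2, 3 and 4 had a second abundant beta gene, Trbv13-2 at 28.1%, Trbv1 at 39.3% and Trbv13-2 at 22.5% of Trbv counts, while in tumour 1 the second was at 2.52%. Of the 35 Trbv genes, 14, 20, 8 and 8 had counts in the tumours, against 23 to 26 in thymus. Among alpha variable genes the top gene took 43.1% and 39.2% in tumours 1 and 2 (Trav13n-1 in both), 64.5% in tumour 3 (Trav9-2) and 69.4% in tumour 4 (Trav10n), against 3.55% to 4.40% in thymus. The mean for Trav was 54.1% ± 15.1 in tumours and 4.03% ± 0.331 in thymus (SD, n = 4 and 6, 2-sided exact permutation p = 0.00476). Mouse Trav genes exist in near-identical copies, among which the counting could divide reads, so the single gene is uncertain and tumours 1 and 2 also had Trav13d-1 as their second gene (14.5% and 17.1%). Replicate 12 of the LCK-Cdc20(D/AAA) tumours with MYCChr6 had nearly the same receptor genes as tumour 1. Its top genes were Trbv15 at 94.3% and Trav13n-1 at 44.2%, followed by Trbv13-2 at 1.39% and Trav13d-1 at 17.96%. Like tumour 1 it had no Xist and some Ddx3y (4.18 CPM), and immunoglobulin genes took 1.49% of its counts. Whether these libraries share an animal or a tumour was not tested. Tumour 4 further held the gamma chain constant genes Tcrg-C1 and Tcrg-C4 at 212 and 351 CPM, against at most 0.702 and 2.48 CPM in the other tumours and 13.99 and 4.84 CPM in thymus. The delta constant gene Trdc was at 0 in tumours 1, 3 and 4. Tcrg-C4 passed with all 4 tumours, log2 fold change 5.13 ± 1.65 (SE, adjusted p = 0.0360), but did not pass when any 1 thymus library was left out, and changed sign without tumour 4 (-1.29).

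**Figure D2:**
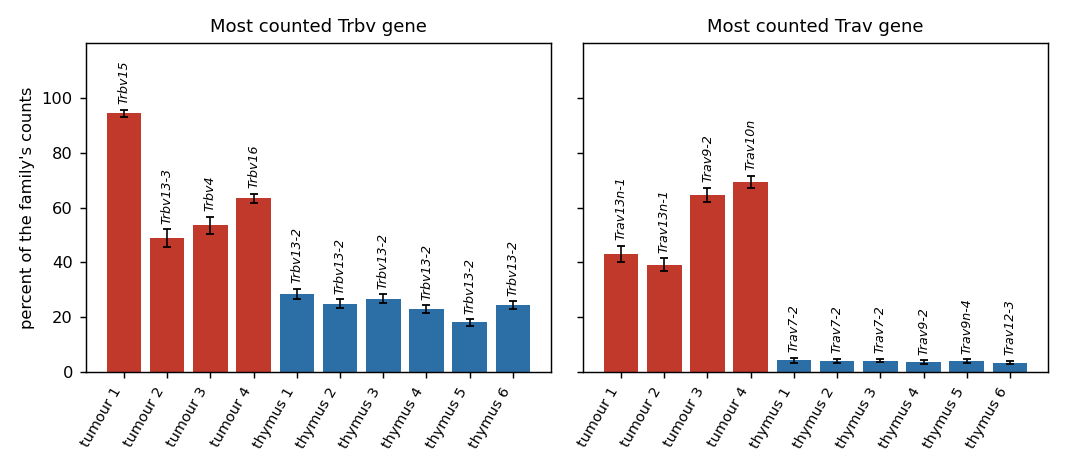
Share of the most counted Trbv gene (left panel) and Trav gene (right panel) among all counts of its family, in percent, for 4 tumours (red) and 6 thymus libraries (blue), with the gene named above each bar and 95% exact binomial intervals as error bars. The tumours lie between 48.8% and 94.4% for Trbv and between 39.2% and 69.4% for Trav, above every thymus library.

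Genes of ribosome production rose. Of 40 genes of ribosome biogenesis, all tested, 34 were higher and 1 (Wdr12) was lower, with a median log2 fold change of 1.53, against 16.4% higher and a median of -0.02 over all tested genes. Npm1 (chr11:33152287-33163206), the nucleolar chaperone nucleophosmin, had 803, 771, 809 and 942 CPM in tumours and 169 to 231 CPM in thymus (median 211), log2 fold change 1.99 ± 0.14 (SE, adjusted p = 1.63e-06). Nhp2, a subunit of the H/ACA ribonucleoproteins that modify ribosomal RNA, had 162, 124, 187 and 174 CPM in tumours and 19.6 to 38.3 CPM in thymus (median 26.7), log2 fold change 2.59 ± 0.21 (SE, adjusted p = 4.19e-06). The nucleolar helicase gene Ddx21 had 95.96, 73.5, 96.9 and 92.3 CPM in tumours and 17.8 to 25.9 CPM in thymus (median 22.1), log2 fold change 2.02 ± 0.17 (SE, adjusted p = 5.37e-06), and Nolc1, a nucleolar scaffold, had 206, 191, 199.6 and 172 CPM in tumours and 42.99 to 74.7 CPM in thymus (median 57.1), log2 fold change 1.73 ± 0.18 (SE, adjusted p = 1.85e-05). In 28 of the 40 genes every tumour lay above every thymus library, against 11.9% of all tested genes. Wdr12 had 38.2, 34.5, 32.8 and 35.2 CPM in tumours and 45.3 to 66.6 CPM in thymus (median 59.6), log2 fold change -0.72 ± 0.17 (SE, adjusted p = 0.00645).

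Ribosomal proteins, a list drawn up after the values were seen, moved the same way, with 81 of 82 tested genes higher (median 1.28), against 16.4% over all tested genes. Rps13 was the exception at 54.6, 134, 56.4 and 286 CPM in tumours and 61.9 to 242 CPM in thymus (median 109), log2 fold change -0.01 ± 0.51 (SE, adjusted p = 0.991). In absolute CPM they were among the largest gains, for example Rpsa at 2731, 2320.0, 3061 and 4571 CPM in tumours and 928 to 1266 CPM in thymus (median 987), log2 fold change 1.63 ± 0.18 (SE, adjusted p = 3.87e-05). Rplp0, Rpl41 and, on chromosome 6, Rpl32 were also among the 8 genes with the largest gain in CPM. Ribosomal protein genes have many processed copies in the genome, so their single values are uncertain. Tmsb10, which encodes an actin-binding thymosin and lies on chromosome 6, was also in that set, at 1928, 1272, 2309 and 442 CPM in tumours and 126 to 263 CPM in thymus (median 226), log2 fold change 2.81 ± 0.37 (SE, adjusted p = 1.87e-04).

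Translation factors were higher in most cases, with 12 of 14 tested genes higher and none lower (median 1.15), against 16.4% higher over all tested genes. Eif5a, whose product helps ribosomes past difficult peptide bonds, had 949.5, 557, 847 and 902 CPM in tumours and 252 to 314 CPM in thymus (median 269), log2 fold change 1.54 ± 0.16 (SE, adjusted p = 2.40e-05). The initiation factor gene Eif3b had 64.7, 59.5, 40.2 and 39.2 CPM in tumours and 7.997 to 13.8 CPM in thymus (median 10.5), log2 fold change 2.24 ± 0.24 (SE, adjusted p = 2.72e-05), and the elongation factor gene Eef1a1, outside the list, had 4947, 3935, 4328 and 7211 CPM in tumours and 2465 to 3291 CPM in thymus (median 2759), log2 fold change 0.88 ± 0.17 (SE, adjusted p = 0.00188). No tumour overlapped the thymus in these 3 genes.

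Chaperones of newly made proteins rose. All 14 genes of the list, each of them tested, were higher (median 1.57), against 16.4% over all tested genes. The cytosolic heat shock protein gene Hsp90ab1 had 3683, 2766, 3689 and 3488 CPM in tumours and 629 to 735 CPM in thymus (median 711), log2 fold change 2.29 ± 0.13 (SE, adjusted p = 3.63e-07), the largest gain in CPM of any gene that the rule could name. Hspd1, the mitochondrial chaperonin, had 142, 100.3, 142 and 220.02 CPM in tumours and 27.6 to 37.1 CPM in thymus (median 31.2), log2 fold change 2.23 ± 0.21 (SE, adjusted p = 1.06e-05), and Hspe1, its partner, which is read from the other strand of the same promoter, had 61.1, 84.9, 71.6 and 123 CPM in tumours and 12.8 to 24.3 CPM in thymus (median 20.98), log2 fold change 2.05 ± 0.24 (SE, adjusted p = 4.42e-05). The cytosolic chaperonin subunit Cct8 had 239, 205, 219 and 243 CPM in tumours and 64.8 to 86.9 CPM in thymus (median 72.03), log2 fold change 1.61 ± 0.15 (SE, adjusted p = 8.57e-06), and Cct7, on chromosome 6, had 401, 275, 401 and 501 CPM in tumours and 102 to 130.04 CPM in thymus (median 119), log2 fold change 1.74 ± 0.17 (SE, adjusted p = 1.34e-05). In 13 of the 14 genes all 4 tumours were above the thymus range, against 11.9% of all tested genes.

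One-carbon metabolism, which feeds carbon units from serine into nucleotides, gave the highest list median of the 25 pathway lists. Of 10 tested genes, 8 were higher and none was lower (median 1.86), and no tumour overlapped the thymus in those 8. The shares over all tested genes were 16.4% higher and 11.9% apart in that direction. Shmt2, the mitochondrial enzyme that splits serine, had 205, 108, 176 and 226 CPM in tumours and 25.2 to 44.9 CPM in thymus (median 38.3), log2 fold change 2.27 ± 0.22 (SE, adjusted p = 1.51e-05). Mthfd2, which acts after it, had 42.8, 42.3, 66.7 and 59.99 CPM in tumours and 5.14 to 13.6 CPM in thymus (median 10.3), log2 fold change 2.39 ± 0.28 (SE, adjusted p = 5.26e-05), and is the 1 member on chromosome 6. The serine synthesis gene Psat1 had 129.8, 124, 188 and 211 CPM in tumours and 26.7 to 53.8 CPM in thymus (median 37.3), log2 fold change 2.13 ± 0.23 (SE, adjusted p = 2.43e-05), and Mthfd1l had 30.4, 31.8, 26.3 and 35.3 CPM in tumours and 5.07 to 13.1 CPM in thymus (median 6.77), log2 fold change 2.01 ± 0.30 (SE, adjusted p = 2.48e-04).

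In nucleotide synthesis 15 of 18 tested genes were higher and 1 (Impdh1) was lower (median 1.19), against 16.4% and 15.9% over all tested genes. Cad, which starts pyrimidine synthesis, had 143, 95.6, 209.99 and 169 CPM in tumours and 23.8 to 69.4 CPM in thymus (median 43.4), log2 fold change 1.83 ± 0.27 (SE, adjusted p = 2.66e-04). Impdh2, the enzyme that commits purines to guanine nucleotides, had 129.8, 114, 143 and 253 CPM in tumours and 36.2 to 57.1 CPM in thymus (median 49.6), log2 fold change 1.72 ± 0.23 (SE, adjusted p = 1.16e-04), while the other gene of this step, Impdh1, had 99.5, 89.4, 29.1 and 105 CPM in tumours and 117 to 172 CPM in thymus (median 142), log2 fold change -0.82 ± 0.29 (SE, adjusted p = 0.0453). The pair moved in opposite directions, but the Impdh1 call was lost without tumour 1, tumour 2 or any 1 thymus library (adjusted p up to 0.0849). Nme1, a nucleoside diphosphate kinase, had 141, 103, 138 and 148 CPM in tumours and 37.2 to 54.3 CPM in thymus (median 42.9), log2 fold change 1.61 ± 0.17 (SE, adjusted p = 2.26e-05), and Ctps, the CTP synthase gene, had 30.2, 25.6, 28.8 and 34.1 CPM in tumours and 5.79 to 13.02 CPM in thymus (median 8.79), log2 fold change 1.64 ± 0.27 (SE, adjusted p = 5.02e-04). The groups lay apart in all 5 of these genes. Without tumour 4, 11 members were higher.

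Polyamine synthesis had 3 of 6 tested genes higher, and none was lower, against 16.4% higher over all tested genes. Srm (chr4:148591503-148594993), the spermidine synthase gene, had 139.6, 108, 150.1 and 287 CPM in tumours and 8.01 to 28.2 CPM in thymus (median 15.6), log2 fold change 3.40 ± 0.34 (SE, adjusted p = 1.82e-05). Odc1, the rate-limiting ornithine decarboxylase, had 39.5, 26.4, 43.02 and 22.6 CPM in tumours and 3.28 to 10.8 CPM in thymus (median 6.61), log2 fold change 2.35 ± 0.36 (SE, adjusted p = 2.95e-04). Sms, the spermine synthase gene, had 27.5, 13.6, 27.4 and 40.6 CPM in tumours and 10.6 to 14.3 CPM in thymus (median 12.4), log2 fold change 1.13 ± 0.29 (SE, adjusted p = 0.00838), with tumour 2 inside the thymus range. In the other 2 genes no tumour overlapped the thymus.

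Promoters of members that rose are shown because MYC binds CACGTG, and because many of these genes moved together. Sequences are RefSeq windows of GRCm38.p6. Of 84 tested members of the ribosome biogenesis, one-carbon, nucleotide, polyamine, translation factor and chaperonin lists that matched a window, 13 (15.5%) held CACGTG in the 250 bases before the start, against 10.1% of the 8347 tested genes that matched one and 6.86% of all 27025 symbols. The word reads the same on both strands, so 1 search covers both. The 3 with the smallest adjusted p are printed 5′ to 3′ on the strand of the gene, with the word in capitals. In Hspd1 (chr1:55088244-55088493, minus strand) it lies 80 bases before the start, in Nme1 (chr11:93968273-93968522, minus strand) 18 bases and in Eif5a (chr11:69921387-69921636, minus strand) 74 bases.
Hspd1: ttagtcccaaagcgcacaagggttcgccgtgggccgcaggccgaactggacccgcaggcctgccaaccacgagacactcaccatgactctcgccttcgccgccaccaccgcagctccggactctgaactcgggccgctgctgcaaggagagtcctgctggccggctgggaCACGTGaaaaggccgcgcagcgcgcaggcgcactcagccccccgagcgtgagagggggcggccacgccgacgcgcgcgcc
Nme1: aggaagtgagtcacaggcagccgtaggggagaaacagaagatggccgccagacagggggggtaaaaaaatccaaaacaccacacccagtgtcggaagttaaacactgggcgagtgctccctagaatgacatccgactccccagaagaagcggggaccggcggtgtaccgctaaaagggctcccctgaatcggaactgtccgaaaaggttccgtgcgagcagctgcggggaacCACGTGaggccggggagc
Eif5a: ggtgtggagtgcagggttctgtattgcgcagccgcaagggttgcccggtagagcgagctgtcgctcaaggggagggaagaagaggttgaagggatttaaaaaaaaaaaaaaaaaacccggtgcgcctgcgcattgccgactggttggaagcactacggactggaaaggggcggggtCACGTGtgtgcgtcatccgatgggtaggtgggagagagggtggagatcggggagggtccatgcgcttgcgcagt
The match is a description of letters and says nothing of binding. Among these 6 lists the share before the start ran from 2.94% in ribosome biogenesis (1 of 34) to 45.5% in translation factors (5 of 11). Other lists spanned a like range, with 0 of 8 Notch genes, 0 of 12 DN2 and DN3 genes, 0 of 12 interferon-inducible genes and 7.14% of the double positive list (1 of 14), but 33.3% of the MYC network (3 of 9), 30.8% of p53 targets (4 of 13) and 23.1% each of MHC class I and cholesterol synthesis (3 of 13). With the first 50 transcribed bases included, ribosome biogenesis came to 20.6% (7 of 34), all tested genes to 12.2% and all symbols to 8.09%.

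Most genes of glycolysis, which turns glucose into pyruvate, were higher. Of 18 tested genes of glycolysis, 12 were higher, and 3 (Hk1, Pfkm and Pdk1, the last lost without tumour 1) were lower (median 1.44). The shares over all tested genes were 16.4% and 15.9%. Tpi1 (chr6:124810586-124814296), the triosephosphate isomerase gene, had 616, 225, 563 and 716 CPM in tumours and 31.4 to 52.8 CPM in thymus (median 44.1), log2 fold change 3.62 ± 0.28 (SE, adjusted p = 3.00e-06). Of the hexokinases, which start the pathway, Hk2 had 10.1, 6.81, 14.4 and 10.8 CPM in tumours and 0 to 0.545 CPM in thymus (median 0.143), log2 fold change 5.43 ± 0.82 (SE, adjusted p = 2.88e-04). Hk1 had 5.46, 14.2, 10.2 and 9.79 CPM in tumours and 28.3 to 37.9 CPM in thymus (median 30.6), log2 fold change -1.70 ± 0.27 (SE, adjusted p = 4.69e-04), so these genes moved in opposite directions, each without overlap. Eno1 (enolase) had 545, 501, 662 and 773 CPM in tumours and 111 to 206 CPM in thymus (median 142), log2 fold change 2.01 ± 0.22 (SE, adjusted p = 2.59e-05), and Pkm (pyruvate kinase) had 940.1, 568, 945 and 629 CPM in tumours and 193 to 275 CPM in thymus (median 251), log2 fold change 1.67 ± 0.18 (SE, adjusted p = 2.88e-05). All 4 tumours were above the thymus in Eno1, Pkm and Tpi1. Of the 12 genes that were higher, 4 lie on chromosome 6, Tpi1 and Hk2 among them.

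In the respiratory chain 14 of 28 tested genes were higher and none was lower, with a median of 0.50. Ndufa4 had 204, 159, 301 and 329 CPM in tumours and 60.1 to 87.97 CPM in thymus (median 73.9), log2 fold change 1.76 ± 0.21 (SE, adjusted p = 5.26e-05), and the cytochrome c gene Cycs had 14.1, 13.4, 14.9 and 25.7 CPM in tumours and 2.91 to 5.86 CPM in thymus (median 4.23), log2 fold change 1.97 ± 0.34 (SE, adjusted p = 8.02e-04), and both lie on chromosome 6. Cox5a, a subunit of complex IV on chromosome 9, had 107, 69.2, 96.6 and 133 CPM in tumours and 43.02 to 54.5 CPM in thymus (median 51.7), log2 fold change 1.003 ± 0.19 (SE, adjusted p = 0.00115). In cholesterol synthesis 2 of 19 tested genes were higher, Mvd and Cyp51, a share of 10.5% against 16.4% over all tested genes. Without tumour 1 or tumour 2 none was higher.

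**Figure D3:**
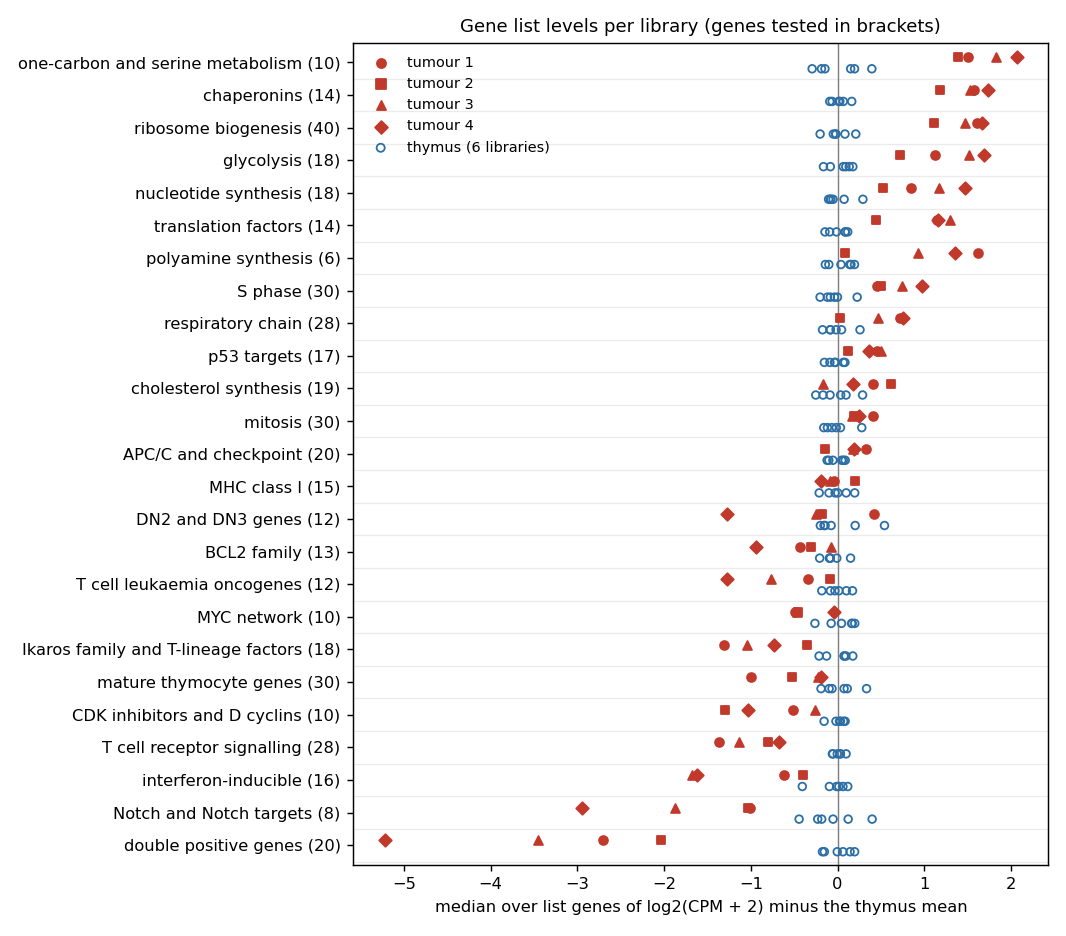
Level of each of the 25 pathway lists per library, as the median over its tested genes of log2(CPM + 2) minus the thymus mean, with tumours as filled red symbols above the 6 thymus libraries (open blue circles, each set against the other 5). The ribosome biogenesis list lies between 1.11 and 1.67 in the tumours and the double positive list between -5.22 and -2.04, both outside the thymus libraries.

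Genes of DNA replication rose in part. Of 30 S phase genes, all tested, 13 were higher and 1 (Gins2, a call lost without tumour 1) was lower, with a median of 0.70. The shares over all tested genes were 16.4% and 15.9%. Mcm2, a subunit of the replicative helicase on chromosome 6, had 202, 228, 238 and 476 CPM in tumours and 74.5 to 103 CPM in thymus (median 91.1), log2 fold change 1.67 ± 0.23 (SE, adjusted p = 1.37e-04). Mcm6, on chromosome 1, had 149.7, 104, 139 and 233 CPM in tumours and 58.3 to 80.5 CPM in thymus (median 66.3), log2 fold change 1.18 ± 0.21 (SE, adjusted p = 7.89e-04), and the DNA ligase gene Lig1 had 86.7, 90.4, 83.4 and 136 CPM in tumours and 28.4 to 44.03 CPM in thymus (median 33.9), log2 fold change 1.49 ± 0.19 (SE, adjusted p = 9.70e-05). Ccne1, the cyclin that opens S phase, had 76.9, 60.7, 49.3 and 22.4 CPM in tumours and 1.38 to 13.6 CPM in thymus (median 8.51), log2 fold change 2.68 ± 0.45 (SE, adjusted p = 7.24e-04), with tumour 4 the lowest of the 4 and still above the thymus.

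Of 30 mitosis genes 7 were higher (23.3%) and 1 (Prc1) was lower, with a median of 0.21, against 16.4% higher and 15.9% lower over all tested genes. The count of 7 fell to 4 without tumour 1 or without any of thymus libraries 2, 3 and 6. Ccnb1, the mitotic cyclin, had 232, 275, 197 and 76.8 CPM in tumours and 40.3 to 65.3 CPM in thymus (median 51.6), log2 fold change 1.90 ± 0.29 (SE, adjusted p = 2.95e-04). Cdk1, its kinase, had 74.3, 59.7, 76.2 and 60.2 CPM in tumours and 31.4 to 48.3 CPM in thymus (median 38.4), log2 fold change 0.81 ± 0.18 (SE, adjusted p = 0.00372). Prc1, which bundles the spindle midzone, had 30.7, 27.5, 25.98 and 26.9 CPM in tumours and 44.7 to 79.5 CPM in thymus (median 56.6), log2 fold change -1.07 ± 0.21 (SE, adjusted p = 0.00175). The groups lay apart in these 3 genes. Cdc20 itself did not pass, with 62.6, 33.4, 57.2 and 28.7 CPM in tumours and 35.5 to 47.04 CPM in thymus (median 41.1), log2 fold change 0.15 ± 0.24 (SE, adjusted p = 0.653), and tumours lay on both sides of the thymus range. The gene count cannot show which allele the transcripts came from.

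Among 20 genes of the APC/C and the spindle checkpoint, 3 were higher (Mad2l1, Anapc11 and Trip13) and 1 was lower (Mad1l1), shares no larger than the 16.4% higher and 15.9% lower over all tested genes. Mad2l1, on chromosome 6, encodes the checkpoint protein that binds Cdc20 and had 57.1, 53.7, 58.6 and 67.9 CPM in tumours and 18.4 to 34.3 CPM in thymus (median 24.4), log2 fold change 1.25 ± 0.21 (SE, adjusted p = 5.87e-04). Mad1l1, which carries that protein to unattached kinetochores, had 44.1, 22.3, 26.9 and 21.9 CPM in tumours and 117 to 189.5 CPM in thymus (median 159.8), log2 fold change -2.43 ± 0.25 (SE, adjusted p = 1.82e-05). No tumour overlapped the thymus in either gene, and the 2 partners moved in opposite directions. Anapc11, the catalytic RING subunit of the APC/C, had 55.6, 69.6, 54.4 and 28.3 CPM in tumours and 14.5 to 21.1 CPM in thymus (median 18.3), log2 fold change 1.52 ± 0.24 (SE, adjusted p = 4.08e-04). Trip13, the ATPase that remodels the Mad2l1 protein, had 11.97, 5.37, 7.37 and 13.8 CPM in tumours and 1.71 to 4.28 CPM in thymus (median 2.82), log2 fold change 1.71 ± 0.47 (SE, adjusted p = 0.0130). Both were higher in all 4 tumours than in any thymus library.

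Regulators of G1 changed in both directions. Of 10 tested, 3 were higher (Cdkn1a, Ccnd2 and Cdk4) and 4 were lower (Ccnd3, Cdkn1b, Cdkn2d and Cdkn2c). The shares over all tested genes were 16.4% and 15.9%. Cdkn2c did not pass when tumour 2, 3 or 4 or thymus library 1, 2, 4 or 5 was left out (adjusted p up to 0.112). Ccnd3 (chr17:47505051-47599691), the D cyclin of thymocyte expansion, had 95.1, 151, 114 and 127 CPM in tumours and 1596 to 1992 CPM in thymus (median 1899), log2 fold change -3.92 ± 0.18 (SE, adjusted p = 9.57e-08). Ccnd2, on chromosome 6, had 256, 184, 179 and 198 CPM in tumours and 47.3 to 75.2 CPM in thymus (median 67.1), log2 fold change 1.65 ± 0.17 (SE, adjusted p = 2.07e-05). The 2 cyclin genes moved in opposite directions, and the groups overlapped in neither. Cdkn1b, the inhibitor p27, had 13.9, 16.5, 19.3 and 22.4 CPM in tumours and 89.1 to 115 CPM in thymus (median 108), log2 fold change -2.54 ± 0.19 (SE, adjusted p = 2.64e-06), and also lies on chromosome 6. Cdk4, the partner kinase of the D cyclins, had 266, 227, 321 and 289 CPM in tumours and 74.2 to 128 CPM in thymus (median 112), log2 fold change 1.38 ± 0.18 (SE, adjusted p = 8.38e-05).

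Targets of p53 did not move as 1 group. Of 17 tested, 4 were higher (Cdkn1a, Bax, Ccng1 and Aen) and 4 were lower (Fas, Btg2, Trp53inp1 and Sesn1, the last lost without tumour 1). The shares over all tested genes were 16.4% higher and 15.9% lower. Cdkn1a, the inhibitor p21, had 103, 29.5, 50.04 and 4.02 CPM in tumours and 0.685 to 7.61 CPM in thymus (median 1.14), log2 fold change 4.48 ± 0.87 (SE, adjusted p = 0.00263), and tumour 4 lay inside the thymus range. Fas, the death receptor, had 3.99, 2.27, 1.93 and 1.05 CPM in tumours and 34.5 to 61.4 CPM in thymus (median 40.7), log2 fold change -4.22 ± 0.37 (SE, adjusted p = 6.24e-06). Btg2, an antiproliferative gene, had 29.2, 45.01, 18.4 and 23.6 CPM in tumours and 85.3 to 169 CPM in thymus (median 118), log2 fold change -2.05 ± 0.27 (SE, adjusted p = 1.20e-04). In both every tumour lay below the thymus. Trp53 had 138, 130.5, 179 and 157 CPM in tumours and 92.3 to 144 CPM in thymus (median 112) and did not pass, log2 fold change 0.40 ± 0.16 (SE, adjusted p = 0.0774), although it did without thymus library 1 (adjusted p = 0.0401).

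In the BCL2 family, which sets the threshold for cell death, 4 of 13 tested genes were higher (Bax, Bid, Bcl2a1b and Bcl2a1d) and 4 were lower (Bcl2l1, Bmf, Bcl2l11 and Mcl1, the last lost without tumour 1 or 3 or thymus library 2, 4 or 6). Among all tested genes 16.4% were higher and 15.9% were lower. Bcl2l1, the gene of Bcl-xL that keeps double positive cells alive, had 13.4, 7.43, 15.1 and 4.37 CPM in tumours and 170.1 to 229 CPM in thymus (median 203), log2 fold change -4.33 ± 0.33 (SE, adjusted p = 2.49e-06). The death-promoting gene Bmf had 1.26, 0, 4.74 and 0 CPM in tumours and 15.1 to 57.1 CPM in thymus (median 46.5), log2 fold change -4.76 ± 0.91 (SE, adjusted p = 0.00230), and Bcl2l11, which encodes Bim, had 4.41, 10.5, 8.78 and 6.47 CPM in tumours and 19.6 to 28.9 CPM in thymus (median 26.7), log2 fold change -1.74 ± 0.29 (SE, adjusted p = 6.59e-04). Bax, an effector of cell death, had 89.9, 46.9, 48.1 and 53.9 CPM in tumours and 14.3 to 27.4 CPM in thymus (median 21.9), log2 fold change 1.47 ± 0.25 (SE, adjusted p = 5.95e-04). The groups lay apart in these 4 genes. Bcl2a1b and Bcl2a1d are near-identical copies, so their separate values are uncertain.

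Myc, on chromosome 15, had 74.96, 47.7, 60.7 and 212 CPM in tumours and 37.9 to 91.3 CPM in thymus (median 49.4) and did not pass, log2 fold change 0.82 ± 0.40 (SE, adjusted p = 0.139). Tumour 4 was the highest, above every thymus library, and the other 3 lay within the thymus range. The mouse gene counts do not measure the MYCChr6 allele separately. Of 10 tested genes of the MYC network none was higher and 3 were lower (Mxd4, Max and Mxd3). Among all tested genes 16.4% were higher and 15.9% were lower. The Mxd3 call was lost without tumour 1, 3 or 4 or thymus library 2, 4, 5 or 6 (adjusted p up to 0.107). Mxd4, which encodes a MAX partner that opposes MYC, had 23.1, 41.1, 27.7 and 24.5 CPM in tumours and 67.4 to 119 CPM in thymus (median 108), log2 fold change -1.82 ± 0.23 (SE, adjusted p = 8.13e-05). Max had 94.9, 52.2, 76.2 and 97.6 CPM in tumours and 112 to 162 CPM in thymus (median 127), log2 fold change -0.73 ± 0.20 (SE, adjusted p = 0.0117), without overlap.

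Of 30 tested genes of mature thymocytes, 4 were higher (Gimap7, Gimap5, Gimap3 and Runx3) and 7 were lower, against 16.4% higher and 15.9% lower over all tested genes. The Gimap3 call was lost without tumour 1, 2 or 3 or thymus library 1, 4 or 5 (adjusted p up to 0.102). The 3 Gimap genes, GTPases of lymphocyte survival, lie in 1 cluster on chromosome 6, and Gimap5 had 101, 36.1, 82.2 and 54.9 CPM in tumours and 14.4 to 30.7 CPM in thymus (median 21.4), log2 fold change 1.62 ± 0.30 (SE, adjusted p = 0.00113). Egr1, an early response gene of receptor signalling, had 169, 118, 120.3 and 115 CPM in tumours and 236 to 337 CPM in thymus (median 282), log2 fold change -1.12 ± 0.17 (SE, adjusted p = 3.16e-04). Ccr7, which guides mature cells to the medulla, had 41.2, 34.1, 24.4 and 4.20 CPM in tumours and 100.4 to 159 CPM in thymus (median 106), log2 fold change -2.15 ± 0.47 (SE, adjusted p = 0.00433). No tumour overlapped the thymus in these 3 genes. Without tumour 4, 11 members were lower and 6 were higher.

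Genes of antigen presentation lay in both directions, and part of the interferon-inducible genes were lower. Over all tested genes 16.4% were higher and 15.9% were lower. Of 15 tested MHC class I genes 6 were higher and 3 (Tap2, H2-Q4 and H2-T23) were lower, with a median of 0.10. Calr, the chaperone calreticulin of class I assembly, had 129.8, 152, 150.5 and 247 CPM in tumours and 44.5 to 70.1 CPM in thymus (median 62.3), log2 fold change 1.47 ± 0.20 (SE, adjusted p = 1.27e-04), while the peptide transporter gene Tap2 had 47.2, 55.3, 56.01 and 101 CPM in tumours and 122 to 173 CPM in thymus (median 145), log2 fold change -1.15 ± 0.22 (SE, adjusted p = 0.00145). Both lay apart. Class I genes share sequence, so H2-Q4 and H2-T23 are uncertain. Of 16 tested interferon-inducible genes none was higher and 5 were lower, Ifit1, Xaf1, Ifit2 and Zbp1 among them, with a median of -1.20. The count of 5 was 9 without tumour 2, 2 without tumour 3, 3 without thymus library 5 and 2 without thymus library 3 or 6. Ifit1, an interferon-induced antiviral gene, had 0.210, 0.206, 0 and 0 CPM in tumours and 1.82 to 11.8 CPM in thymus (median 5.63), a ratio of thymus over tumours of 64.8 (95% exact counting interval 17.7 to 539), and no tumour overlapped the thymus.

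Chromosome 6 had the highest score of the 20 chromosomes in tumours 1, 2 and 4. Its score, the median of log2(CPM + 2) minus the thymus mean over genes that averaged 10 CPM or more, was 0.35, 0.38, 0.33 and 0.90 in tumours 1 to 4 and between -0.0026 and 0.04 in thymus, a difference of 0.47 (2-sided exact permutation p = 0.00476, adjusted over 20 chromosomes p = 0.0136). A score above 0.292, the midpoint between 0 and log2(1.5), was taken as the limit for a gain, and all 4 tumours passed that limit on chromosome 6. Of 620 tested genes on chromosome 6, 190 (30.6%) were higher and 62 (10%) lower, against 15.5% and 16.3% of the 10910 other genes. Along the chromosome, in 6 bins of 25 Mb, tumours 1 to 3 were highest between 50 and 75 Mb (0.80, 0.75 and 0.61 over 44 genes) and lowest between 125 and 150 Mb (0.08, 0.19 and -0.02 over 69 genes). Tumour 4 ran from 0.76 to 1.16 over the 6 bins.

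Tumour 3 also passed the gain line on chromosome 15, which holds Myc, at 0.35, and tumour 1 was at 0.21. Tumours 2 and 4 were at -0.09 and -0.07, and thymus at -0.05 to 0.11. The difference on this chromosome did not pass (0.08, adjusted exact permutation p = 0.467). No score passed the line for a loss. The scores of 12 other chromosomes were slightly lower in tumours (differences from -0.17 to -0.06) and that of chromosome 3 slightly higher (0.05). Centred on the mean of all 10 libraries, an alternative chosen after seeing the data, 10 chromosomes were lower and chromosomes 6 and 14 were higher, while chromosome 3 did not pass.

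**Figure D4:**
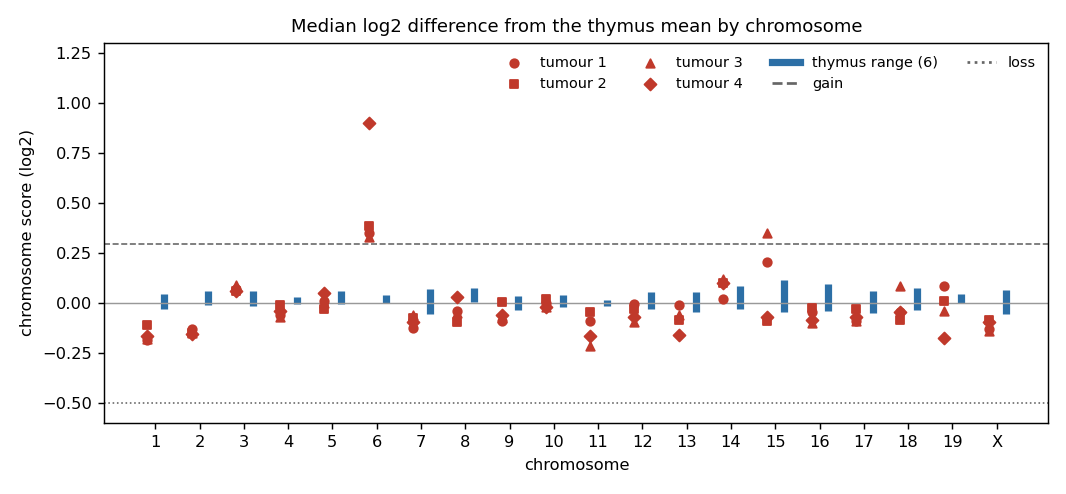
Chromosome scores (median log2 difference from the thymus mean) of the 4 tumours as red symbols, left of the range of the 6 thymus libraries as blue bars, with dashed and dotted lines at the gain and loss limits. All 4 tumours lie above the gain line on chromosome 6, with tumour 4 at 0.90, and tumour 3 also on chromosome 15.

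The score is a median of RNA levels, and DNA copy number was not measured. Chromosomes with a score above the gain limit numbered 1, 1, 2 and 1 in the 4 tumours, and 0 in each thymus library, with or without MYCChr6. The 14 tumours of genotype LCK-Cdc20(D/AAA) with MYCChr6 had 0 to 5. Those with 0 were replicates 6 and 9, and both entered the mean. In replicate 9 immunoglobulin genes took 38.2% of counts. In replicate 6 the top Trbv gene took 20.9% of Trbv counts, inside the thymus range of 18.2% to 28.6%. The mean was 1.25 ± 0.5 in tumours of +/D genotype and 2.14 ± 1.51 in D/AAA tumours (SD, n = 4 and 14, difference -0.89, 2-sided exact permutation p = 0.332). Replicate 12, whose receptor genes were nearly those of tumour 1, entered as a separate D/AAA tumour, with only chromosome 6 above the limit. Chromosome 6 passed the line in 12 of the 14 D/AAA tumours and chromosome 15 in 9 of 14.

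Several marker lists of other cell types differed between tumours and thymus, some of them in tumours 1 to 3 only. Immunoglobulin genes took 1.39%, 0.867%, 0.395% and 0.0436% of counts in tumours 1 to 4, and 0.0317% to 0.0922% in thymus (exact permutation p = 0.0190). Of 14 tested B cell genes 6 were higher, and of 9 tested plasma cell genes 8 were higher, against 16.4% over all tested genes. Igkc, the kappa light chain, had 3687, 2072, 1027 and 78.4 CPM in tumours and 23.8 to 168 CPM in thymus (median 88.9), log2 fold change 4.25 ± 0.86 (SE, adjusted p = 0.00377), and Cd79a, a chain of the B cell receptor, had 200.1, 183, 192 and 4.90 CPM in tumours and 4.15 to 53.5 CPM in thymus (median 15.9), log2 fold change 2.88 ± 0.89 (SE, adjusted p = 0.0299), a call lost without tumour 1, 2 or 3 or without thymus library 1, 2, 5 or 6 (adjusted p up to 0.0793). Tumours 1 to 3 were high in both and tumour 4 was not. Without tumour 4, 13 of 14 B cell genes were higher, and the count of 6 was 1 to 3 without any other tumour or without thymus library 1, 2, 5 or 6. The plasma cell count of 8 was 4 without tumour 1 and 5 without tumour 2 or thymus library 5.

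Of 13 tested myeloid genes 10 were higher and none was lower, in 7 without overlap. Over all tested genes 16.4% were higher and 11.9% lay apart in that direction. Without tumour 1 the count of 10 was 6. Lyz2, the lysozyme of macrophages and neutrophils, had 426, 115, 212 and 42.8 CPM in tumours and 9.68 to 27.8 CPM in thymus (median 18.5), log2 fold change 3.38 ± 0.52 (SE, adjusted p = 6.22e-04). Itgam, which encodes the integrin CD11b, had 109.8, 162, 16.3 and 42.2 CPM in tumours and 1.38 to 11.6 CPM in thymus (median 3.36), log2 fold change 3.97 ± 0.67 (SE, adjusted p = 0.00113). All 4 tumours lay above the thymus in both. The summed markers were 166 to 774 CPM in tumours and 37.1 to 82.3 CPM in thymus for myeloid cells, and 18.7 to 49.96 CPM in tumours and 92.7 to 274 CPM in thymus for thymic epithelium. For B cells they were 189 to 5888 CPM in tumours and 304 to 852 CPM in thymus. The part of these cells in the falls of T cell genes and in the rises of growth genes was not tested.

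Of 7 tested genes of the dendritic cell list 1 (Ccr7) was lower and 3 were higher, the MHC class II genes H2-Ab1, H2-Eb1 and H2-Aa, with tumours 1 to 3 above the thymus and tumour 4 within or below its range. The H2-Aa call was lost without tumour 1, 2 or 3 or thymus library 2, 5 or 6 (adjusted p up to 0.0786), and without tumour 4, 5 genes of the list were higher. H2-Ab1 had 767, 571, 689.8 and 36.7 CPM in tumours and 41.4 to 123 CPM in thymus (median 70.4), log2 fold change 2.80 ± 0.61 (SE, adjusted p = 0.00550). Itgax, a defining dendritic cell marker, was at 0 in tumours 3 and 4 and at most 4.41 CPM in the others. The adhesion gene Pecam1 was lower, with 36.96, 44.8, 22.3 and 26.2 CPM in tumours and 43.3 to 81.3 CPM in thymus (median 62.2), log2 fold change -0.91 ± 0.24 (SE, adjusted p = 0.0117), while Cdh5, a marker of endothelium, was at 0 in all 6 thymus libraries and at most 1.47 CPM in tumours. Of the regulatory T cell list 3 of 10 tested genes were lower (Lrrc32, Tnfrsf18 and Nrp1) and 1 was higher (Capg), and the 3 lower calls fell to 0 without thymus library 3, 4 or 6 and to 1 without thymus library 5 or tumour 2. Foxp3 did not pass, at 23.3, 6.19, 0 and 0 CPM in tumours and 13.3 to 19.7 CPM in thymus (median 15.3), log2 fold change -1.15 ± 1.06 (SE, adjusted p = 0.442). Of the 5 tested red cell genes 1, Hemgn, was higher, with 50.6, 58.2, 21.4 and 1.57 CPM in tumours and 0 to 2.57 CPM in thymus (median 0.828), while the haemoglobin genes Hba-a1 and Hbb-bs did not pass. Of 4 tested genes of thymic epithelium 3 (Ctsl, Ccl25 and Ly75) were lower, and 1 was without tumour 1 or 3. Of 3 tested stromal genes 2 (Thy1 and Pdgfrb) were lower, and 1 was without tumour 2 or 3 or thymus library 1, 3, 5 or 6. Thy1 is also on the T cell list, so its fall is counted in both lists. It made up most of the summed stromal CPM in thymus. The Pdgfrb call was lost without tumour 1, 2 or 3 (adjusted p up to 0.0742). The 1 adipocyte gene tested did not pass. Of 10 tested NK, NKT and cytotoxic genes 2 (Fcer1g and Il2rb) were higher and 1 (Klrb1c) was lower. These counts ran from 1 to 3 and from 0 to 1 when 1 library was left out. The Il2rb call was lost without tumour 1, 3 or 4 or thymus library 3, 4, 5 or 6 (adjusted p up to 0.123), and the Klrb1c call did not pass without tumour 1, 2 or 4 (adjusted p up to 0.0726). Of 9 tested gamma delta genes 1 (Tcrg-C4) was higher and 2 were lower, Trdc among them, and of 10 tested T cell genes 6 were lower. For all lists of this paragraph, the shares over all tested genes were 16.4% higher and 15.9% lower.

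**Figure D5:**
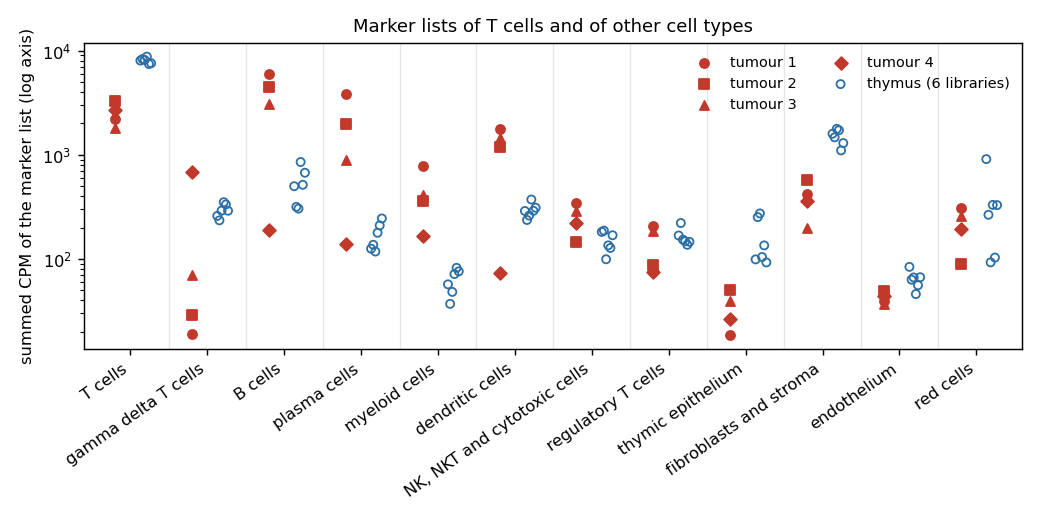
Summed CPM of marker lists per library on a log axis, with 4 tumours (filled red symbols) left of 6 thymus libraries (open blue circles). T cell markers are lower in all tumours, myeloid markers are higher in all tumours, and B and plasma cell markers are high in tumours 1 to 3, with tumour 4 at 189 and 139 CPM. Thy1 is on both the T cell and the stromal list and makes up most of the stromal sum in thymus.

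The 2 thymus libraries that carry MYCChr6 lay with the other thymus for most of these genes. They had 4633989 and 2777652 total counts, and 18254 and 23022 genes with a count. The other thymus had 14950 to 16577 such genes and the tumours 15514 to 16836. Red cell markers summed to 1403 to 2513 CPM in MYCChr6 thymus, against 92.8 to 909 CPM in the other thymus. Of 2689 genes that were called and whose groups did not overlap, both MYCChr6 thymus libraries lay on the thymus side of all 4 tumours in 2241. That held for 29 of the 34 ribosome biogenesis genes that were higher, for 15 of the 15 double positive genes that were lower, and for 13 of the 14 chaperonin genes. It held for fewer of the members that were higher in nucleotide synthesis (9 of 15), the respiratory chain (9 of 14), mitosis (4 of 7), plasma cells (4 of 8) and B cells (1 of 6). These list counts take all called members, also those in which tumours overlapped the thymus without MYCChr6. The 2241 of 2689 leave such genes out, and no share over all 3722 called genes was computed. The list counts therefore cannot be set against a common rate. Every tumour lay above all 6 of those libraries in 12 tested genes of nucleotide synthesis, 8 of the respiratory chain and 4 of mitosis. The same was true of 1 plasma cell gene and 0 B cell genes. Summed B cell markers were 325 to 403 CPM in MYCChr6 thymus and 304 to 852 CPM in the other thymus. Srm had 139.6, 108, 150.1 and 287 CPM in tumours and 25.6 and 23.7 CPM in MYCChr6 thymus, Rag1 11.1, 60.1, 0.176 and 0.175 CPM in tumours and 878 and 807 CPM in MYCChr6 thymus, and Notch3 0, 0.206, 0 and 0.175 CPM in tumours and 79.7 and 128 CPM in MYCChr6 thymus. The direct test of the same tumours against these 2 libraries called 384 of 12545 genes (3.06%), 153 higher (1.22%) and 231 lower (1.84%), and it shares the tumours with the main comparison. These 2 libraries had little Xist and some Ddx3y, unlike tumours 2 to 4. The count ran from 57 to 1394 when 1 tumour was left out. On simulated data of this size, with 100 genes changed 4-fold and 100 changed 2-fold, none of these changes was recovered. So few changed genes make the adjusted threshold stricter than in the real data. The real test called smaller changes, among them Npm1 at a log2 fold change of 1.82, so the simulation does not give its recovery.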

How the data were processed

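Total RNA of unsorted thymus and thymic lymphoma was sequenced. The authors deposited expected counts per gene, for which the submitters' processing notes name FastQC, STAR 2.5.3a and RSEM 1.3.0 with GRCm38. All values in the table were whole, so no rounding was needed. Symbols, types and positions came from the GENCODE M21 annotation, which may differ from the release the authors used, and strand handling is not given in the sources used here. No columns were left without a sample.

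The counts of 10 libraries were fitted with edgeR 4.0.16 (quasi-likelihood test, filterByExpr, TMM, robust dispersion) in R 4.3.3, with Benjamini-Hochberg adjustment over all tested genes and a threshold of 0.05. A second fit set the same tumours against 2 MYCChr6 thymus libraries. The SE of a fold change was taken as its absolute log2 value over the square root of F. Single values were compared by 2-sided exact permutation tests over libraries (scipy 1.17.1). Alternatives were DESeq2 1.42.0 size factors and test, limma 3.58.1 voom with quality weights, no filter, 1 fit of all libraries, a fold threshold of 1.5, other chromosome scores, and leaving out each library.

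The members and lists were chosen with earlier results of these data known. Named genes were the 12 largest called rises and falls with at least 10 CPM in the higher group and no overlap, the 8 largest differences in CPM per direction, Cdc20, Trp53 and Myc, and up to 4 called members per list with its defining markers. Other genes, among them Wdr12, Rps13, Hspe1, Lmo2, Hk1, Hk2, Impdh1, Runx3, Cdk4 and the remaining members of counts of 5 or fewer, were named after their values were seen. A few genes that the rule named are not reported here. For a gene with no count in a group, a fold is a bound set by a floor of 3 counts per library. On simulated counts for the thymus comparison (11530 genes), the fit recovered 60% of 100 genes changed 4-fold and 10% of 100 changed 2-fold, with 1 false call. Far fewer genes were changed there than were called in the real data, which makes the adjusted threshold stricter. These rates therefore do not give the recovery in the real data. Depth limits the precision of genes with few counts, and intervals and floors cover counting error only.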

Additional observations from a re-analysis of the deposited data

Results flagged for a closer look

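In 362 groups of 4 or 6 values, 38 had a highest or lowest library that passed the Dixon critical value (95% level). The measure is the gap to the nearest of the others over the whole range. Chance alone passes that value in about 1 in 20 groups of normally distributed values. A group of zeros with counts in 1 library always passes, so the 38 cannot be set against that rate. Of the 38, 23 were in tumours, 15 of these in tumour 4, and 15 were in thymus. The range of the other libraries of the same group is given in parentheses after each value.

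Tumour 4 stood apart in its chromosome 6 score of 0.90 (0.33 to 0.38). It was also apart in P2rx1 at 0.175 CPM (0), Scn4b at 0.874 CPM (0), Cd247 at 384 CPM (69.1 to 83.6), Myc at 212 CPM (47.7 to 74.96), Lig1 at 136 CPM (83.4 to 90.4), Mcm2 at 476 CPM (202 to 238) and Tap2 at 101 CPM (47.2 to 56.01). The same held for H2-Q4 at 16.96 CPM (43.4 to 48.6), Cycs at 25.7 CPM (13.4 to 14.9), Cyp51 at 26.1 CPM (15.5 to 16.7), Cd79a at 4.90 CPM (183 to 200.1), Tcrg-C4 at 351 CPM (0 to 2.48), Tcrg-C1 at 212 CPM (0 to 0.702) and Trp53inp1 at 15.7 CPM (89.5 to 102).

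Tumour 1 was apart in Apod at 110.03 CPM (2.11 to 3.50), Bax at 89.9 CPM (46.9 to 53.9) and Egr1 at 169 CPM (115 to 120.3). Tumour 2 was apart in Shisa6 at 125 CPM (5.44 to 12.6), Chrna9 at 0.206 CPM (0), Pcbp3 at 0.206 CPM (0), Gfra1 at 0.413 CPM (0) and Trdc at 2.48 CPM (0).

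Thymus library 1 was apart in Asns at 0.755 CPM (0 to 0.195), Hba-a1 at 182 CPM (14.99 to 58.6) and Hbb-bs at 235 CPM (22.3 to 99.2). Thymus library 2 was apart in Crhbp at 0.230 CPM (0) and Cdkn1a at 7.61 CPM (0.685 to 1.51). Thymus library 3 was apart in Shisa6 at 0.182 CPM (0) and Ccr7 at 159 CPM (100.4 to 117). Thymus library 4 was apart in Apod at 0.195 CPM (0), Ccr9 at 960.3 CPM (663 to 708) and Foxn1 at 1.56 CPM (0). Thymus library 5 was apart in Spock2 at 8.28 CPM (0 to 2.57), Scn4b at 59.7 CPM (27.4 to 33.2), Rpsa at 1266 CPM (928 to 1045), Fas at 61.4 CPM (34.5 to 44.1) and Cdkn2d at 95.1 CPM (66.7 to 74.2).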

How the results depend on the processing

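In the thymus comparison the count of 3722 genes was 3745 with relative log expression factors, 4966 with DESeq2, 4169 with limma voom, 4162 without the filter, 3851 with 1 fit of all libraries and 3726 without CT010467.1. A fold threshold of 1.5 left 2185, since it asks for more than a nonzero change. The share of higher calls was 50.7%, and 64.8% with 1 fit of all libraries (cause not tested). Leaving out 1 library gave 3105 to 4054. The count of 384 against MYCChr6 thymus was 1318 with DESeq2, 1543 with voom, 1606 without the filter, 1526 with 1 fit of all libraries and 14 to 1394 with 1 library left out (26 and 14 without each thymus library and 84, 637, 57 and 1394 without tumours 1 to 4). The chromosome 6 difference of 0.47 ran from 0.34 to 0.53, and the lowest value was without tumour 4. On chromosome 15 the difference of 0.08 ran from -0.0081 without tumour 3 to 0.14. Centring on all 10 libraries, an alternative chosen after seeing the data, gave 10 chromosomes lower in tumours, against 12. The difference in the number of chromosomes above the gain limit ran from -1.14 to -0.32.

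Of 2890 alternative values for 171 named genes, 2651 kept direction and side of the threshold, 219 lost it and 11 gained it. Reversals were gene Tcrg-C4 with voom (-1.41) and on leaving out 1 library (-1.29 to 5.55), gene Tcrg-C1 with voom (-3.68) and on leaving out 1 library (-4.85 to 3.18), and, on leaving out 1 library, gene Cdc20 (range -0.037 to 0.31) and gene Rps13 (range -0.72 to 0.25), of which only Tcrg-C4 was called. The cause was not tested. Of 1326 alternative list counts 156 moved by over 1.5 times. No paired analysis was possible because the labels number no replicates and tie no tumour to a thymus. Depth limits genes of a few counts, where a single count sets the value.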
